A study of Mus musculus with 2 samples.

Results

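Blood vessel genes were examined in 2 rhabdoid tumors (RT) of Dppa3-cre::Smarcb1 mice, profiled by bulk RNA-seq. The list held 42 genes, all of which were matched by symbol among the 55416 genes of the count table, and it was divided into 19 pan-endothelial genes, 4 endothelial transcription factors, 3 blood-brain barrier genes, 3 lymphatic genes, 4 adhesion molecules that capture leukocytes, 3 pericyte genes and 6 angiogenic ligands. Both mice expressed Cre from the Dppa3 locus, which is active in primordial germ cells, and were heterozygous for a floxed Smarcb1 allele (Dppa3-cre::Smarcb1 fl/+). Per the labels, the intracranial tumor was taken at the trigeminal nerve and the extracranial tumor at the facial maxillar site, and each carries the class label MYC. Ages were not given in the sources used here, and no normal tissue was sequenced alongside.

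The libraries held 34545846 counts (labelled intracranial) and 26915696 counts (labelled extracranial). With 1 library per location there was no replicate, and every interval below is a 95% interval for counting error only, which compares these 2 libraries and not the 2 locations. The targeted gene Smarcb1, which encodes a SWI/SNF chromatin remodeler subunit, had 365 and 530 counts, or 10.5 and 19.8 CPM (counts scaled to library size), in the intracranial-labelled and the extracranial-labelled library, and counts of the whole gene do not resolve its floxed part. Markers of tissue around a tumor differed widely. Keratinocyte markers were higher in the intracranial-labelled library in 7 of 7 genes and summed to 3433.9 against 5.04 CPM, with Krt5, Krt1, Trp63 and Dsg3 at 0 counts in the other. Schwann cell markers were mixed, with 3 of 7 called as higher there, among them Sox10 (43 and 0 counts), and 2 as higher in the other, and they summed to 57.2 and 113.2 CPM. The oligodendrocyte factor Olig2 had 0 counts in both. Because epithelial markers were this high in the piece labelled as trigeminal nerve, the libraries are called by their labels. Bulk RNA cannot tell fewer cells of a type from less RNA per cell.

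Blood vessels are lined by endothelial cells, which sprout when vascular endothelial growth factors (VEGF) bind their receptors, and which are wrapped by pericytes. Angiopoietins and their receptor Tek act on how stable a vessel is. Brain endothelium forms a barrier with its own transporters, lymphatic endothelium depends on Prox1 and Flt4, and inflamed endothelium displays selectins and other adhesion molecules on which leukocytes roll and stop.

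Of the 42 genes, 41 had at least 10 counts over both libraries and were compared. The exception was Slco1a4, an organic anion transporter of the blood-brain barrier, with 0 counts in both libraries. The upper 95% limits of a count of 0 were 0.106 and 0.138 CPM, and the floor of 3 counts used for ratios equals 0.0863 and 0.112 CPM. A gene was called when the whole interval of its ratio lay beyond 2-fold. This held for 20 of the 41 genes (48.8%), against 15.6% of the 21977 genes compared in the whole table. Higher in the extracranial-labelled library were 14 of the 20 (34.1% of the 41, against 5.86% of all genes), and the other 6 were higher in the intracranial-labelled library (14.6%, against 9.77%). Among protein-coding genes only, the background was 18.9% in either direction, 6.9% toward the extracranial-labelled and 12.0% toward the intracranial-labelled library. Counting error alone was exceeded by 36 of the 41 genes, against 61.4% of all genes. Of these, 28 were higher in the extracranial-labelled library (29.2% of all genes) and 8 in the other (32.2% of all genes). An interval beyond 4-fold was reached by 6 genes, against 7.19% of all genes, with 3 in each direction (1.78% and 5.41% of all genes). A ratio beyond 2-fold, without regard to its interval, was found for 16 and 6 genes, against 10.5% and 17.0% of all genes and 27.6% in either direction. The median log2 ratio of the 41 genes, extracranial-labelled over intracranial-labelled, was 0.85, and that of all genes compared was -0.04 (interquartile range -0.57 to 0.36). A ratio above 1 was found for 47.0% of all genes compared. These shares over all genes are the background of every count of called genes given below.

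**Figure D1:**
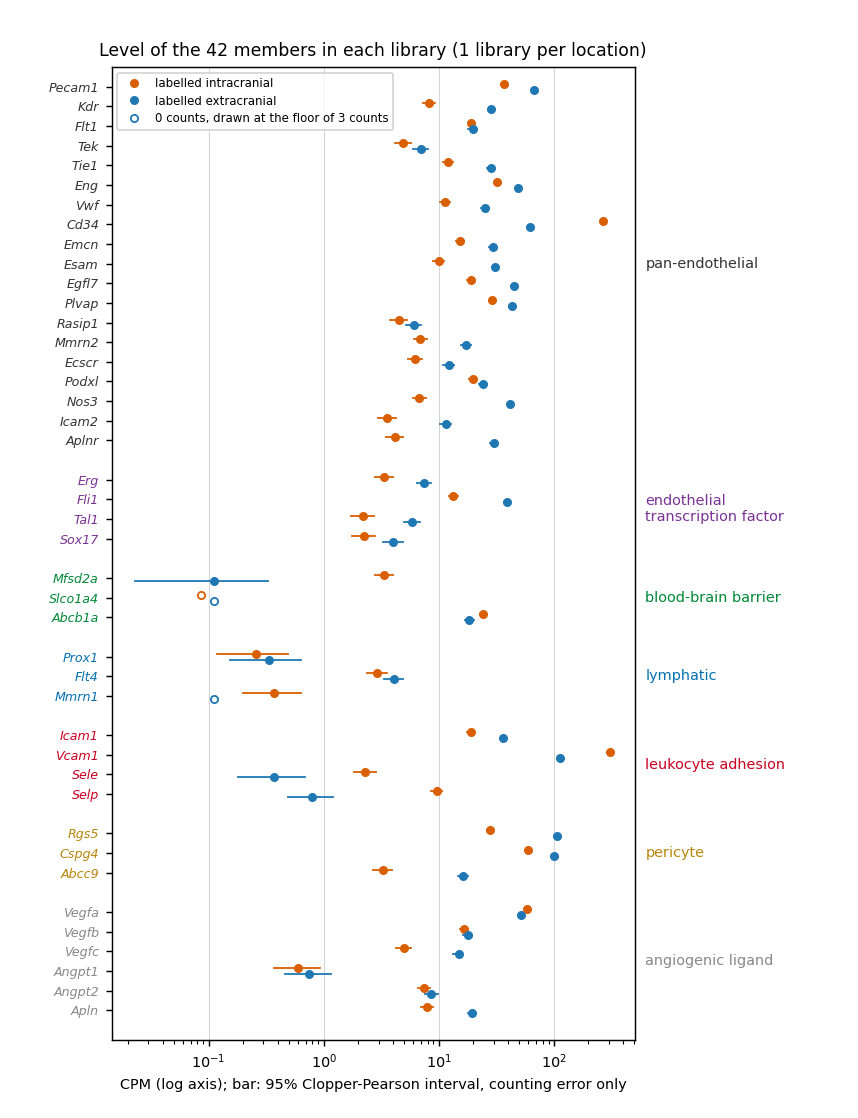
Level of each of the 42 genes in each library, in CPM on a log axis, with 1 point per library and bars for the 95% Clopper-Pearson interval. Most pan-endothelial genes lie to the right in the extracranial-labelled library, whereas Cd34 (267.6 and 62.7 CPM), Vcam1 (309.1 and 114.0 CPM), Selp, Sele and Mfsd2a lie to the left. Open points mark 0 counts and are drawn at the floor of 3 counts.

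Promoter sequences of 4 genes that were called are shown, 1 from each of 4 classes, since these genes stand for the contrast described below: Kdr and Rgs5 were higher in the extracranial-labelled library, Mfsd2a and Sele in the other. Each is the 250 bases before the RefSeq start (GRCm38.p6), on the strand of the gene, with the letters of a searched motif in capitals. In Kdr these are TTCCGG, the reverse complement of the core CCGGAA that factors of the ETS family such as Erg and Fli1 bind. In Rgs5 they are TTATCT, the reverse complement of the GATA motif AGATAA. In Mfsd2a they are ACGTG, which occurs at 2 places and is the only form of the hypoxia response element core that was searched. In Sele they are the TATA box TATAAA, 49 bases before the start.
Kdr (chr5:75978456-75978705, - strand): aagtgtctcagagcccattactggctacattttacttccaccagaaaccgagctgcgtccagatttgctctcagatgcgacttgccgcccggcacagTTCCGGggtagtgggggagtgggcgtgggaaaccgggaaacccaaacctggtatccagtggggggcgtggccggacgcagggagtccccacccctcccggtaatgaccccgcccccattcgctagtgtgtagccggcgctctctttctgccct
Rgs5 (chr1:169655251-169655500, + strand): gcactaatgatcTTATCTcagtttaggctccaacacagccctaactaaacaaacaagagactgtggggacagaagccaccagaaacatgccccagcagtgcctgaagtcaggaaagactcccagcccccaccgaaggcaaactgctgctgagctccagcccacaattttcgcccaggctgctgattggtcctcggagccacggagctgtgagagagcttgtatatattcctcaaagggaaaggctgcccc
Mfsd2a (chr4:122961189-122961438, - strand): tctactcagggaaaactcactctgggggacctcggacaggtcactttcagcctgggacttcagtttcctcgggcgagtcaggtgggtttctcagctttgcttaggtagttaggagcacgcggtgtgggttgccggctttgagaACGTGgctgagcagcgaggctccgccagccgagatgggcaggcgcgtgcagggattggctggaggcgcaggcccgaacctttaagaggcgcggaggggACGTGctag
Sele (chr1:164047984-164048233, + strand): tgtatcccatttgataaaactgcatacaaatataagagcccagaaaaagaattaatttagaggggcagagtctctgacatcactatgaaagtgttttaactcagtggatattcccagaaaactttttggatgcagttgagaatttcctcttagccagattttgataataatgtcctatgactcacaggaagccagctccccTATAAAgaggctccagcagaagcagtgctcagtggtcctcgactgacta

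A RefSeq promoter entry was found for 27 of the 42 genes, in 34 windows of 300 bases that run from 250 before to 50 after a start. Searched on both strands, CCGGAA was present in 2 of the 34 windows (Kdr and Icam1, 5.9%), against 14.9% of all 32851 windows. ACGTG was present in 2 windows (Mfsd2a and Vegfa, 5.9%, against 19.6%), AGATAA in 5 (14.7%, against 11.2%) and TATAAA in 5 (14.7%, against 13.6%). The 4 motifs do not overlap each other in the sequences printed. No motif was common among the genes called in 1 direction. Among the 11 windows of genes higher in the extracranial-labelled library, CCGGAA was in 1 and AGATAA in 2, and among the 5 windows of genes higher in the other, ACGTG and TATAAA were in 1 each. A match is a run of letters and not a bound site.

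Pan-endothelial genes were higher in the extracranial-labelled library almost throughout. In 18 of 19 genes the ratio was above 1, against 47.0% of all genes compared. In 17 it was so beyond counting error, against 29.2%. In 8 (42.1%, against 5.86%) the interval lay beyond 2-fold, whereas Cd34 alone was lower. The median log2 ratio of the class was 0.98, which is 1.97-fold. Pecam1 (ENSMUSG00000020717), the junctional adhesion molecule by which endothelium is usually stained, was measured at 36.7 CPM (34.7 to 38.7) in the intracranial-labelled and 67.9 CPM (64.9 to 71.1) in the extracranial-labelled library, a 1.85-fold difference (1.72 to 1.99). It was thus higher beyond counting error but not called.

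The VEGF receptors Kdr and Flt1 differed unequally between the libraries. Kdr, the receptor through which VEGF mainly signals in endothelium, had 285 and 766 counts, or 8.20 and 28.6 CPM, and was 3.49-fold higher in the extracranial-labelled library (3.04 to 4.01). Flt1, which also acts as a decoy receptor, had 667 and 527 counts, or 19.2 and 19.7 CPM, and its ratio of 1.03 (0.913 to 1.15) was within counting error. Per kilobase of exon, Kdr stood at 0.639 times the level of Flt1 (0.554 to 0.735) in the intracranial-labelled library and at 2.17 times (1.94 to 2.43) in the other, so the order of the receptors was opposite in the 2 libraries. This pair, like the other pairs of genes set against each other below, was chosen after the values were seen.

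Of the angiopoietin receptors, Tek had 4.89 and 6.95 CPM (1.42-fold, 1.15 to 1.76) and its partner Tie1 12.0 and 28.3 CPM (2.36-fold, 2.09 to 2.67). Only Tie1 was called, and its level per kilobase was 2.35 times that of Tek (1.96 to 2.83) in the intracranial-labelled library and 3.91 times (3.32 to 4.61) in the other. The receptor of apelin, Aplnr, had 144 and 805 counts and showed the largest difference of the 42 genes toward the extracranial-labelled library, 7.26-fold (6.07 to 8.73). Nos3, the endothelial nitric oxide synthase, followed with 236 and 1109 counts, 6.10-fold (5.30 to 7.05). For these 2 genes the interval lay beyond 4-fold.

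Junction and matrix genes were called as well. Esam, an adhesion molecule of endothelial junctions, had 9.99 and 31.1 CPM (3.11-fold, 2.74 to 3.54), and Icam2, a constitutive endothelial adhesion molecule also found on leukocytes and platelets, 3.57 and 11.5 CPM (3.21-fold, 2.60 to 3.99). Mmrn2, an endothelial matrix protein, had 6.94 and 17.3 CPM (2.49-fold), and the secreted factor Egfl7 had 18.9 and 45.4 CPM (2.40-fold). Each was higher in the extracranial-labelled library with its whole interval beyond 2-fold.

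A further group was higher by less than the limit of a call. Vwf, the clotting protein stored by endothelium and platelets, came closest, with 393 and 678 counts and an interval of 1.98-fold to 2.54-fold. Ecscr, Emcn, Eng, Plvap, Tek, Rasip1 and Podxl were 1.97-fold, 1.91-fold, 1.51-fold, 1.5-fold, 1.42-fold, 1.35-fold and 1.23-fold higher. Plvap, which forms the diaphragms of fenestrated capillaries, was among the highest members per kilobase in both libraries, at 14.5 and 21.8 CPM per kilobase.

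Cd34 (ENSMUSG00000016494), a sialomucin of endothelium that is also made by fibroblasts and by stem cells of blood and hair follicle, went the other way. It had 9297 counts (267.6 CPM) in the intracranial-labelled and 1677 counts (62.7 CPM) in the extracranial-labelled library, a difference of 4.27-fold (4.05 to 4.5). Set against Pecam1 per kilobase, it stood at 6.23 times (5.88 to 6.62) in the former and at 0.788 times (0.737 to 0.843) in the latter. Cd34 made up so much of the class that it decided the summed level: the 19 genes summed to 517.3 and 580.6 CPM, a log2 ratio of 0.17 (0.14 to 0.20), and without Cd34 to 249.8 and 517.9 CPM, a log2 ratio of 1.05 (1.01 to 1.09). The 6 fibroblast markers summed to 3307.5 and 4825.5 CPM and divided, 2 being called as higher in the extracranial-labelled and 1 as higher in the other library, with Pdgfra (271.0 and 137.7 CPM) lower and Lum (24.5 and 572.1 CPM) higher in the extracranial-labelled library, and keratinocyte markers were higher in the other, as given above. Their part in the level of Cd34 was not tested.

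Endothelial transcription factors were higher in the extracranial-labelled library in 4 of 4 genes, with a median log2 ratio of 1.28. Fli1 had 465 and 1054 counts (2.94-fold, 2.64 to 3.29) and Tal1, a factor of endothelium and blood progenitors, 76 and 157 counts (2.68-fold, 2.03 to 3.58), and both were called. The related ETS factor Erg had 117 and 199 counts (2.21-fold, 1.75 to 2.80), and Sox17, a factor of arterial endothelium, 78 and 108 counts (1.8-fold, 1.33 to 2.44). Neither of these was called, although each exceeded counting error.

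Several of these genes are shared with blood cells. Macrophage markers were higher in the extracranial-labelled library in 8 of 8 genes and summed to 2160.5 and 6258.6 CPM, with none at 0. Platelet and megakaryocyte markers had ratios below 1 in 8 of 8 genes compared, 5 of them beyond counting error and 1 called. They summed to 148.7 and 109.1 CPM, most of which was Pf4 (94.1 and 85.0 CPM). Gp9 had 8 and 0 counts, too few to be compared. T cell markers summed to 14.5 and 27.2 CPM (3 of 6 called, all higher in the extracranial-labelled library) and B and plasma cell markers to 3.25 and 25.9 CPM (2 of 5 called, both higher there). What leukocytes added to Fli1, Pecam1, Icam1 and Icam2 was not tested.

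Endothelial genes outside the 42 were counted beside them. Of 20 such genes, 18 had a ratio above 1, 7 were called, all higher in the extracranial-labelled library, and the median log2 ratio was 1.0. The junctional cadherin Cdh5, which defines endothelium, had 21.6 and 59.8 CPM (2.77-fold), and the tight junction protein Cldn5 88.8 and 95.6 CPM (1.08-fold). Gpihbp1, which anchors lipoprotein lipase on capillaries, was the highest by ratio (153 and 563 counts, 4.78-fold). Tm4sf1, which is also made by other cells and had the most counts of the 20 (8421 and 4611), was the lowest by ratio. The list summed to 522.4 and 733.2 CPM, and without Tm4sf1 to 280.1 and 560.8 CPM.

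**Figure D2:**
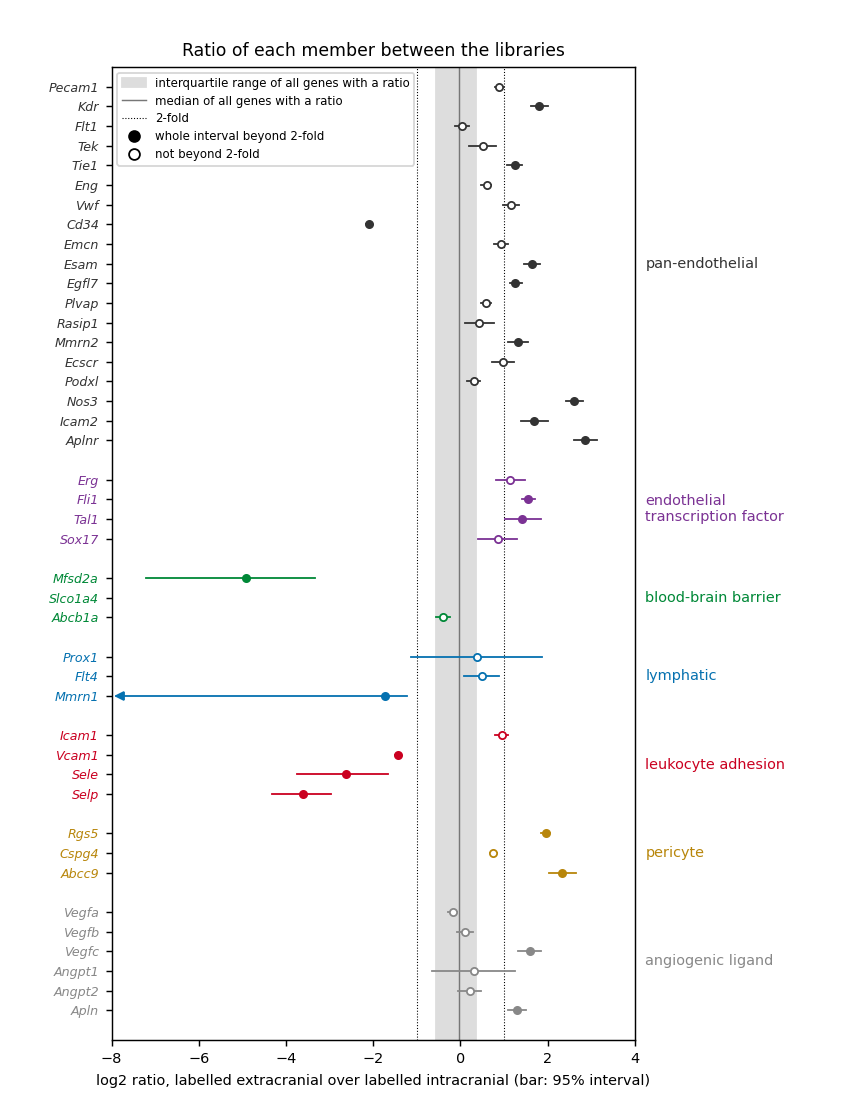
Log2 ratio, extracranial-labelled over intracranial-labelled, of the 41 genes compared, with 95% conditional exact intervals. Filled points mark the 20 genes whose whole interval lies beyond 2-fold (dotted lines), and the gray band is the interquartile range of all genes compared (-0.57 to 0.36). Pericyte genes and most endothelial genes lie to the right of the band, whereas Cd34, Mfsd2a, Vcam1, Sele and Selp lie to the left. The arrow on Mmrn1 marks an interval without a lower end, as that gene had 0 counts in the extracranial-labelled library.

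Genes of arteries and veins were counted next, against the 15.6% called among all genes. Of 7 arterial genes, 3 were called, all higher in the extracranial-labelled library, and the median ratio was 2.03-fold. Gja4, a gap junction protein of arterial endothelium, had 97 and 786 counts (10.5-fold), and the netrin receptor Unc5b 458 and 1981 counts (5.62-fold). The Notch target Hey1 was the lowest by ratio, with 143 and 101 counts and an interval that spanned an equal level (log2 -0.51 to 0.25). None of the 4 venous genes was called, and their median log2 ratio was -0.21. The difference between the lists was not tested, and the arterial genes Hey1 and Bmx (log2 -0.12 and -0.17) lay within the range of the venous ones. Nr2f2, the factor that specifies veins, had 18.3 and 17.9 CPM, and the venular chemokine receptor Ackr1 had 21.8 and 11.3 CPM, 1.93-fold higher in the intracranial-labelled library. Nrp2, which had the most counts of the venous list (4131 and 2934), is also a gene of lymphatic vessels. Sprouting is led by tip cells, and of 6 tip cell genes 5 had a ratio above 1, with 2 called (Dll4 and Unc5b, both counted as arterial too) and Esm1, a secreted proteoglycan of tip cells, at 9.24 and 11.2 CPM.

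Blood-brain barrier genes were low or lower in the extracranial-labelled library. Mfsd2a, the lipid transporter that keeps brain endothelium tight, had 117 counts (3.37 CPM) in the intracranial-labelled and 3 counts (0.112 CPM) in the extracranial-labelled library, a 30.0-fold difference (log2 interval -7.21 to -3.33). The gene is also expressed outside vessels, for example in liver. Abcb1a, which encodes the drug efflux pump P-glycoprotein, had 843 and 494 counts (1.31-fold, 1.17 to 1.47). Of the 3 barrier genes, only Abcb1a was thus above the floor of 3 counts in both libraries. At the level of Pecam1 per kilobase, Abcb1a reached 0.752 (0.689 to 0.821) and 0.309 (0.279 to 0.341).

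Of 12 other barrier genes, 10 were compared, with 5 called as higher in the intracranial-labelled library and 1 as higher in the other, and the median log2 ratio was -1.75. The epithelial and endothelial factor Foxq1 was the lowest by ratio (185 and 5 counts), and the efflux pump Abcg2 the highest (420 and 888 counts, 2.75-fold). Slc2a1, the glucose transporter of brain endothelium and of many tumor cells, had the most counts (5390 and 2706) and was 1.53-fold higher in the intracranial-labelled library. The more specific Slco1c1 had 3 and 1 counts. Ocln (97 and 5 counts) and Lsr (82 and 37 counts) are tight junction genes of epithelium as well, and the keratinocyte markers given above were higher in the same library. Their part in these values was not tested. Astrocyte markers, which would come with brain tissue, summed to 8.29 and 3.21 CPM, with 1 of 4 called, higher in the intracranial-labelled library, and with Aqp4 at 11 and 0 counts. The called gene was Aldh1l1 (147 and 37 counts), which with Slc1a3 (94 and 35 counts) made up most of the sum. Gfap had 30 and 13 counts, within counting error, and Slc1a2 had 6 and 1 counts, too few to be compared.

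Lymphatic genes were near the limit of detection apart from Flt4, the receptor of VEGF-C, which had 101 and 109 counts (2.91 and 4.07 CPM, 1.40-fold, 1.06 to 1.86). Prox1, the factor that specifies lymphatic endothelium, had 9 counts in each library, and its interval of 0.457-fold to 3.69-fold shows that no difference was detectable at this depth. Mmrn1, which lymphatic endothelium and platelets make, had 13 and 0 counts. With 0 counts set to the floor of 3 it was 3.34-fold higher in the intracranial-labelled library, and the counting interval began at 2.35-fold. Of 7 other lymphatic genes, 2 were called, both higher in the intracranial-labelled library. Lyve1, the hyaluronan receptor of lymphatic vessels that some macrophages carry too, had 1031 and 18 counts (44.1-fold, log2 interval -6.22 to -4.80), and Ccl21a, a chemokine with near-identical copies whose reads cannot be separated, had 43 and 1 counts. Pdpn, which fibroblasts and tumor cells make as well, had the most counts (17169 and 9355), and Reln was the highest by ratio (66 and 105 counts).

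Adhesion molecules on which leukocytes stop were lower in the extracranial-labelled library in 3 of 4 genes, all of them called, while Icam1 was higher. Selp, the P-selectin of venules and platelets, had 333 and 21 counts (9.58 and 0.785 CPM), a 12.2-fold difference (7.86 to 20.0). Sele, the E-selectin that endothelium makes on activation, had 80 and 10 counts (2.30 and 0.374 CPM, 6.16-fold, 3.18 to 13.3). The selectins therefore moved against the pan-endothelial genes: set against Pecam1 per kilobase, Selp stood at 0.369 (0.326 to 0.417) in the intracranial-labelled and 0.0163 (0.0101 to 0.025) in the extracranial-labelled library.

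Vcam1, an integrin ligand of activated endothelium that mesenchymal cells and macrophages can also make, had 10741 and 3050 counts, or 309.1 and 114.0 CPM (2.71-fold, 2.60 to 2.82). Per kilobase it stood at 8.04 times the level of Icam1 (7.43 to 8.71) in the intracranial-labelled library and at 1.54 times (1.43 to 1.65) in the other. Icam1, the ligand of leukocyte integrins, had 657 and 976 counts (18.9 and 36.5 CPM) and was 1.93-fold higher in the extracranial-labelled library (1.75 to 2.13), which was not called. With Vcam1 the class summed to 339.9 and 151.6 CPM, a log2 ratio of -1.16 (-1.22 to -1.11), and without it the sum was higher in the extracranial-labelled library, at 0.29 (0.16 to 0.41). Neutrophil markers summed to 706.2 and 58.6 CPM, with 4 of 5 called as higher in the intracranial-labelled library and 1 as higher in the other. In the intracranial-labelled library most of this sum was S100a8 (258.2 CPM) and S100a9 (416.0 CPM). S100a9 had 14455 and 13 counts, Retnlg 306 and 0 counts, and Csf3r, which macrophages make as well, 692 and 1542 counts. Ly6g had 4 and 1 counts, too few to be compared. Keratinocyte markers were higher in the intracranial-labelled library too, as given above, and their part in these neutrophil values was not tested. Of the 8 platelet markers compared, 1 was called (12.5%, against 15.6% of all genes), Ppbp with 250 and 24 counts, while Pf4 had 94.1 and 85.0 CPM, a log2 ratio of -0.15. Their part in the level of Selp was not tested.

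Pericyte genes were higher in the extracranial-labelled library in 3 of 3 genes, with a median log2 ratio of 1.95. Rgs5 (ENSMUSG00000026678), a regulator of G-protein signaling and a widely used pericyte marker, had 969 and 2875 counts, or 27.9 CPM (26.2 to 29.7) and 107.4 CPM (103.5 to 111.4), which is a 3.85-fold difference (3.58 to 4.15). Abcc9, a subunit of the ATP-sensitive potassium channel, had 113 and 437 counts (5.02-fold, 4.07 to 6.23). Cspg4, the proteoglycan NG2, which glial precursors and many tumor cells carry too, had 2067 and 2676 counts (1.68-fold, 1.59 to 1.78) and was not called.

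Among 10 other pericyte genes, 9 were compared, and 3 were called in each direction, with a median log2 ratio of 0.14. Kcnj8, which forms the pore of the same channel as Abcc9, had 68 and 312 counts and the highest ratio of this list (5.96-fold). Higher in the intracranial-labelled library were Ndufa4l2 (422 and 70 counts), Notch3 (1989 and 345 counts) and Anpep (1211 and 411 counts). Pdgfrb, the receptor that recruits pericytes and is made by mesenchymal cells as well, was nearly level at 254.0 and 280.5 CPM (1.10-fold). Against the pan-endothelial sum without Cd34, the 3 pericyte members reached 18.7% in the intracranial-labelled and 26.3% in the extracranial-labelled library, per kilobase, a log2 ratio of 0.49. With Cd34 in the denominator the shares were 11.7% and 24.7%. Rgs5 alone stood at 1.04 times the level of Pecam1 (0.958 to 1.13) and at 2.17 times (2.04 to 2.30). The oligodendrocyte precursor factors Olig1, Olig2 and Nkx2-2 had at most 1 count in either library, while Sox10 and Pdgfra of the same marker list, which other cells make as well, were given above.

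**Figure D3:**
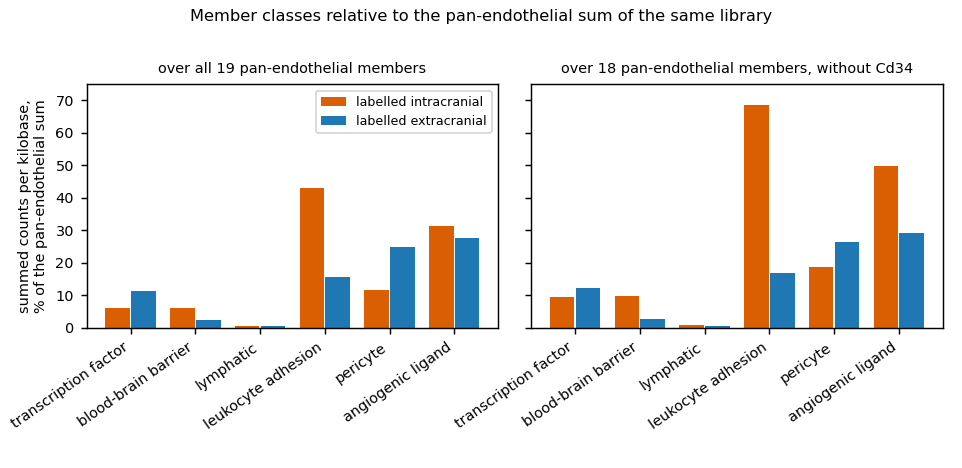
Summed counts per kilobase of each class as a percentage of the pan-endothelial sum of the same library, with all 19 pan-endothelial genes (left) and without Cd34 (right), in bars from 0. There is 1 library per bar and no error bar. The adhesion class stands at 42.9% in the intracranial-labelled and 15.6% in the extracranial-labelled library (left; 68.6% and 16.7% on the right), and the pericyte class at 11.7% and 24.7% (18.7% and 26.3% on the right).

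Angiogenic ligands differed little in their median log2 ratio, which was 0.26. Of the 6 genes, 2 were called, both higher in the extracranial-labelled library (33.3%, against 5.86% of all genes). Vegfa (ENSMUSG00000023951), the main driver of sprouting and a target of hypoxia signaling, had 2037 and 1380 counts, or 58.6 CPM (56.1 to 61.2) and 51.6 CPM (48.9 to 54.4), and was 1.14-fold higher in the intracranial-labelled library (1.06 to 1.22). Vegfb had 16.6 and 17.8 CPM, within counting error. Vegfc, the lymphatic growth factor, was called, with 172 and 398 counts (3.0-fold, 2.51 to 3.61). The level of Vegfa per kilobase was thus 6.77 times that of Vegfc (5.79 to 7.96) in the intracranial-labelled library and 1.98 times (1.77 to 2.22) in the other.

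The angiopoietins were within counting error in both cases. Angpt1, which stabilizes vessels, had 21 and 20 counts, and Angpt2, its context-dependent antagonist stored by endothelium, 260 and 231 counts. Per kilobase Angpt2 exceeded Angpt1 by 17.5 times (11.2 to 28.7) and 16.3 times (10.3 to 27.2), and these intervals overlap. Apln, the ligand of Aplnr, had 276 and 520 counts (2.45-fold, 2.11 to 2.84) and was called, so that ligand and receptor were both higher in the extracranial-labelled library, the receptor by more (2.45-fold and 7.26-fold).

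Of 9 other angiogenic ligands, 7 were compared, with a median log2 ratio of -1.42. Of these, 4 were called, all higher in the intracranial-labelled library (57.1%, against 9.77% of all genes). Adm, adrenomedullin, had the lowest ratio (444 and 38 counts, 9.0-fold), and Vegfd had 2428 and 281 counts (6.65-fold). Fgf2 had the most counts (3942 and 1075), while Pdgfb, by which endothelium recruits pericytes (30.4 and 47.7 CPM, 1.57-fold), and Hgf (133 and 156 counts, 1.52-fold) were higher in the extracranial-labelled library beyond counting error. Hypoxia targets were lower in the extracranial-labelled library in 8 of 9 genes, with a median log2 ratio of -0.93, although Vegfa differed by 1.14-fold only. Of the 9, 4 were called, all higher in the intracranial-labelled library (44.4%, against 9.77% of all genes). Adm was among the called genes of this list and of the ligand list, and Slc2a1 is also counted among the other barrier genes. Egln3 had 538 and 34 counts, Ldha, the one with the most counts, 25269 and 10319, and Car9, which went the other way, 51 and 92 counts. Keratinocyte markers were higher in the same library, as given above, and their part in these values was not tested.

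**Figure D4:**
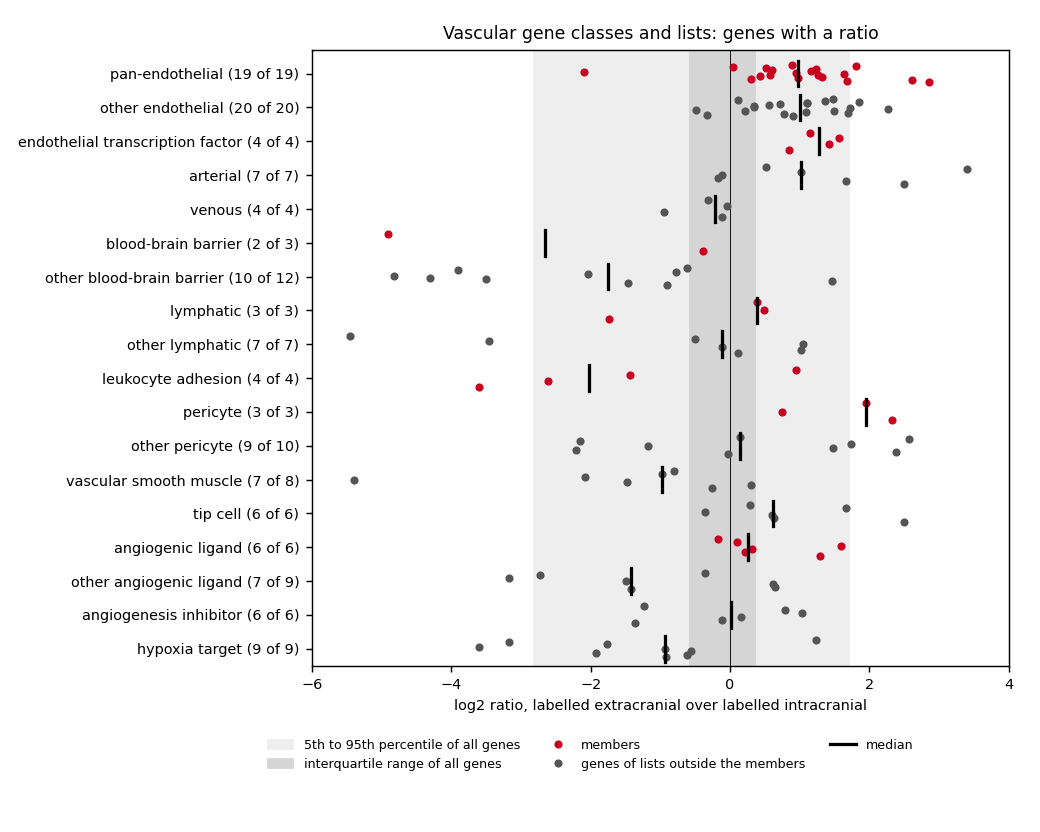
Log2 ratio, extracranial-labelled over intracranial-labelled, of the genes in 7 classes of the 42 genes (red) and in 11 other vascular lists (gray), with medians as black bars and the number of genes compared in brackets. Dark and light gray bands are the interquartile and 5th to 95th percentile ranges of all genes compared. Pan-endothelial, transcription factor, arterial and pericyte class medians (0.98, 1.28, 1.02 and 1.95 on the log2 scale) lie to the right of the interquartile band. The pericyte class holds 3 genes, and the median of the other pericyte list (0.14) lies within the band. Other endothelial, tip cell and lymphatic class medians (1.0, 0.62 and 0.38) also lie to the right. Adhesion, barrier (2 genes) and hypoxia medians (-2.03, -2.65 and -0.93) lie to the left. So do the other barrier, other ligand and smooth muscle medians (-1.75, -1.42 and -0.97).

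Levels of different genes were set in order per kilobase of exon. In the intracranial-labelled library Cd34 ranked 1 among the 42 genes (36.7 CPM per kilobase), followed by Vcam1 (34.8), Plvap (14.5), Vegfa (13.7) and Vegfb (10.3). The extracranial-labelled library was led by Rgs5 (23.6), Plvap (21.8), Vcam1 (12.8), Egfl7 (12.7) and Eng (12.1), the co-receptor of TGF-beta on endothelium. Cd34 ranked 12 there, and Rgs5 7 in the former. At the lower end stood Angpt1, Mmrn1, Prox1 and Slco1a4 in the intracranial-labelled library, and Sele, Mfsd2a, Prox1, Mmrn1 and Slco1a4 in the other.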

How the data were processed

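Total RNA of 2 frozen tumor pieces was poly(A)-selected and sequenced as single reads from directional libraries. The authors aligned reads with STAR (version 2.7.9a) at default parameters to the Ensembl mouse genome (GRCm39) and counted them per gene with featureCounts. The deposited values are raw read counts for 55416 genes, 1 column per tumor, not normalized. Whether strand was used, and how reads with several alignments were treated, is not given in the sources used here, which leaves counts of overlapping and antisense genes, and of genes with close copies, uncertain.

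Symbols, biotypes and summed exon lengths came from GENCODE release M21 (GRCm38), and 52083 IDs (93.99%) had a symbol. The 42 genes and all lists were chosen with earlier results of these data known, and the lists (11 vascular, 13 of cell type markers) were written from general knowledge. Every one of the 42 genes is described. Of each other list, the genes with the highest and the lowest ratio and the highest level, among those with at least 1 CPM in 1 library, are named by rule, and the remaining ones were named after their values were seen.

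Library sizes were scaled with TMM (edgeR 4.0.16, R 4.3.3), with factors of 1.006 and 0.994. CPM, counts scaled by these library sizes, were given Clopper-Pearson 95% intervals. Ratios of genes with 10 or more counts over both libraries were given conditional exact binomial 95% intervals and called beyond 2-fold. In list medians, counts of 3 or fewer were set to 3. No test across samples could be fitted with 1 library per location, and no p-value is given. Depth was 34545846 and 26915696 counts, so 3 counts equal 0.0863 and 0.112 CPM. Reads carried no molecular identifiers, so intervals and floors cover counting error only. Procedures were tested on simulated data. Alternatives comprised DESeq2 (1.42.0) size factors, total counts, upper quartile scaling and other count limits, folds, backgrounds and denominators.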

Additional observations from a re-analysis of the deposited data

How the results depend on the processing

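No paired analysis was possible because only 1 library stood for each location, and no library could be left out on that account. The alternatives were listed with earlier results of these data known, and the denominator without Cd34 was added after the values were seen. The 3 other scalings moved the median ratio of genes with 100 or more counts by -0.017 to 0.038 on the log2 scale, gave 20 or 21 genes called, and left every summed class ratio within its counting interval except the pan-endothelial sum (0.20 under upper quartile scaling, against 0.17). An interval beyond 4-fold gave 6 genes and one beyond 1-fold gave 36, by construction. The ratio alone, beyond 2-fold, gave 22 genes, and a minimum of 100 counts gave 18. With protein-coding genes as background, 20 genes stood against 18.9% of the protein-coding genes compared.

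The median log2 ratio of the adhesion class was -1.44 over genes with 100 or more counts, against -2.03. Without its most abundant gene, the summed log2 ratio of a class became 1.05 (pan-endothelial, without Cd34, against 0.17), 1.15 (transcription factors, without Fli1, against 1.42), -4.91 (barrier, without Abcb1a, against -0.57), -0.91 (lymphatic, without Flt4, against 0.32), 0.29 (adhesion, without Vcam1, against -1.16), 1.99 (pericyte, without Cspg4, against 1.30) and 0.71 (ligands, without Vegfa, against 0.23). The adhesion and the lymphatic sums thus each changed sign through 1 gene, the lymphatic one from a value within counting error.

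Relative to the pan-endothelial sum of the same library per kilobase, the log2 ratios were 0.95 for transcription factors, -1.28 for barrier, -0.23 for lymphatic, -1.46 for adhesion, 1.07 for pericyte and -0.18 for ligand genes. Without division by length, transcription factors had 1.25, barrier -0.74, lymphatic 0.15, adhesion -1.33 and ligands 0.07. The lymphatic and the ligand values thus changed sign, and both intervals then spanned an equal level (-0.22 to 0.52 and -0.01 to 0.14). With the other endothelial genes as denominator, adhesion had -1.36, pericyte 1.17 and ligands -0.09. Without Cd34 in the denominator the 6 values became 0.37, -1.86, -0.81, -2.04, 0.49 and -0.77. Depth limits the lymphatic genes Prox1 and Mmrn1, as well as Mfsd2a, Sele and Angpt1, which had 20 or fewer counts in a library.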

Other observations

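Of 8 contractile genes of vascular smooth muscle, 7 were compared, 6 of them with a ratio below 1 and 3 called, all higher in the intracranial-labelled library, and the median log2 ratio was -0.97. Acta2 had the most counts (873 and 384), Cnn1 had 164 and 1 counts, and Mylk was the highest by ratio with 214 and 203 counts. Skeletal muscle markers, which share some contractile genes with smooth muscle, were higher in the same library in 6 of 6 genes compared (44.5 and 9.42 CPM in sum), and their part was not tested.

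Angiogenesis inhibitors had a median log2 ratio of 0.02 over 6 genes, and 1 was called (16.7%, against 15.6% of all genes). Thbs1 had 89.8 and 38.2 CPM and was called as higher in the intracranial-labelled library, whereas Col18a1, the collagen from which endostatin is cut, had 101.7 and 207.9 CPM. Serpinf1 had the most counts (31141 and 22230), a 1.08-fold difference. Among erythroid genes, which mark blood in a piece, Hba-a1 (492 and 947 counts) and Hbb-bs (296 and 639 counts), both with near-identical copies, were higher in the extracranial-labelled library, 2.50-fold and 2.80-fold, and Slc4a1 had 0 counts in both. Of 5 erythroid genes compared, 3 were called, all in that direction. Neuron markers summed to 69.4 and 69.3 CPM, with 2 of 6 called in each direction.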
